A study of Mus musculus with 6 samples.

Results

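The Wnt pathway genes followed here in mouse T cells were picked by their symbols in the deposited gene table: the ligand genes Wnt10b and Wnt10a, the receptor genes Fzd7, Lrp5, Lrp6 and Lgr4, the effector gene Ctnnb1 and the feedback genes Axin2, Znrf3 and Rnf43. All 10 symbols were found, each once, among 47725 genes, and 9 of the 10 were abundant enough to be among the 13928 genes tested. Wnt10b and Lgr4 were named because they differed strongly between the groups in opposite directions, so their values below are a description with no test; the other 8 were listed by their place in the pathway, with results of these data already known. RNA was sequenced in 6 libraries of wild-type C57BL/6 CD4+ T cells: 3 with CKBA, made from AKBA, a boswellic acid of frankincense resin, and 3 with its vehicle DMSO. In both groups naive cells were grown for 3 days with antibodies to CD28 (2 µg/ml), IFN-γ (10 µg/ml) and IL-4 (5 µg/ml) and with 3 cytokines, TGF-β1, IL-6 and IL-23 (10 ng/ml of each). This mixture drives cells to the IL-17-producing TH17 fate. No source used here gives the CKBA dose, and nothing in the labels says that replicates came from separate animals or cultures, so each p-value covers the spread of these libraries alone, and that spread may be technical.

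Wnt proteins are secreted, lipid-modified ligands that bind a Frizzled receptor together with the co-receptor LRP5 or LRP6. The signal stops the destruction complex from degrading β-catenin, which then enters the nucleus and acts with the DNA-binding proteins TCF and LEF. Axin2, Znrf3 and Rnf43 are switched on by this signal in many tissues and damp it: AXIN2 is a scaffold of the destruction complex, and ZNRF3 and RNF43 are membrane ubiquitin ligases that remove Frizzled receptors. R-spondins bound to LGR4 take these ligases off the surface and so raise the response to Wnt. In T cells the pathway is best known through TCF-1, encoded by Tcf7, in thymic development and in the upkeep of naive and memory cells.

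The sequences before the start sites of Wnt10b, Lgr4 and Fzd7, the 3 listed genes that differed most, and of Axin2, the usual readout of the pathway, are shown to allow their regulatory DNA to be compared. Each runs from 250 bases before to 50 bases after the start site in RefSeq, 5′ to 3′ on the gene's strand, in build GRCm38.p6. RefSeq windows were matched for 6 of the 10 genes. Capitals mark matches, on either strand, to a TCF/LEF motif (CTTTGAA or CTTTGAT or CTTTGTA or CTTTGTT), to the CCAAT box (CCAAT) or to the octamer (ATGCAAAT).
Wnt10b, chr15:98778101-98778400, minus strand: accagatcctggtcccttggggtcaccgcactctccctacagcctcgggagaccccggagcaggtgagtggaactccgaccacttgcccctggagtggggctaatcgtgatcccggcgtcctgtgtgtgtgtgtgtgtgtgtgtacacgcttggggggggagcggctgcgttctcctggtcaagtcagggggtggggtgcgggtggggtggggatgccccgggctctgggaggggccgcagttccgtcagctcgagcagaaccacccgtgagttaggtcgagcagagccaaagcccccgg
Lgr4, chr2:109917397-109917696, plus strand: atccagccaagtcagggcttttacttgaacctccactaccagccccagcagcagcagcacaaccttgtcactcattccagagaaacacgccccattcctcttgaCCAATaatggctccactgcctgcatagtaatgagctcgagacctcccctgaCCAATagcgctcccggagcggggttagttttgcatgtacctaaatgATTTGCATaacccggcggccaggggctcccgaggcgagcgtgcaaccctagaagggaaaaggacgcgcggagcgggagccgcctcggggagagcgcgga
Fzd7, chr1:59481897-59482196, plus strand: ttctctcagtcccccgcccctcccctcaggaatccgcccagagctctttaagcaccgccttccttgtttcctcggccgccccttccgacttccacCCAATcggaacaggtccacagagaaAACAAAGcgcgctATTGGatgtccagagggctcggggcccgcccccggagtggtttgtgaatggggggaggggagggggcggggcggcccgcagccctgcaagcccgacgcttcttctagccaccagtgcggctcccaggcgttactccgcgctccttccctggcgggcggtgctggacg
Axin2, chr11:108920099-108920398, plus strand: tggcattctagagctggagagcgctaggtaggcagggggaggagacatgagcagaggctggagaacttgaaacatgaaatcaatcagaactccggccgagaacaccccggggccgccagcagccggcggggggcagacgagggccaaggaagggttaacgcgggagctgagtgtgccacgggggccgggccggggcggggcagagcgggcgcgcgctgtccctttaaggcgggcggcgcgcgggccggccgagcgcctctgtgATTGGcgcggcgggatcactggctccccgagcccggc
The Fzd7 window held 1 TCF/LEF match, AACAAAG on the opposite strand, starting 130 bases before the RefSeq start site. Such a match was present in 16.9% of all 32851 windows. In the GENCODE annotation Fzd7 starts at 59482424, so its window, which ends at 59482196, lies wholly before that start. Lgr4 had CCAAT at 146 and 95 bases before its start and the octamer, read on the opposite strand as ATTTGCAT, at 49 bases before it. The octamer was found in 1.74% of all windows and the CCAAT box in 37.4%. The CCAAT box and the octamer were added to the search after the windows had been read. No TCF/LEF letters were found in the windows of Wnt10b, Lgr4 or Axin2, and none of the 4 windows held TGATGCAA, a motif bound by ATF4 with C/EBP proteins, or the STAT motif TTCNNNGAA. Those letters were present in 0.895% and 8.3% of all windows. The matches in these windows did not overlap. All 4 windows were richer in G and C than the median window of 52.7%, at 66.3% for Wnt10b, 58.3% for Lgr4, 66.7% for Fzd7 and 70.0% for Axin2.

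Total counts lay between 19838347 and 25331863 per library. Replicates 1 and 2 of each group differed by a chi-square of 2.83 per gene for CKBA and 3.33 for DMSO, a measure close to 1 under pure sampling noise. In each group replicate 3 stood apart from both of them, at 34.4 to 37.8. The labels name epidermis as the tissue and T cells as the cell type. All 9 T cell markers were measured, with a summed level of 2405 to 2577 CPM (reads scaled to library size) with CKBA and 3055 to 3118 CPM with DMSO, and 2 of them, Cd3d and Cd28, were lower. Of 12 keratinocyte markers, 8 had no count in any library, among them Krt1, Krt14 and Trp63, and the list summed to 34.5 to 43.0 CPM with CKBA and 38.0 to 50.3 CPM with DMSO. Most of this came from Sfn, at 16.3 to 36.4 CPM over the 6 libraries, and Perp, at 11.4 to 16.4 CPM. Krt10 reached at most 2.00 CPM and Krt5 at most 1 read in a library. The 6 B cell markers summed to 110 to 257 CPM with CKBA and 109 to 179 CPM with DMSO, and the 6 CD8 and NK cell markers to 67.8 to 75.5 CPM with CKBA and 120 to 134 CPM with DMSO. Ms4a1 was called higher among the B cell markers. It stood at 4.74, 5.07 and 1.21 CPM with CKBA and 0.763, 0.638 and 1.27 CPM with DMSO, so the groups overlapped. In replicate 3 the B cell sum was 110 CPM with CKBA and 179 CPM with DMSO. Among the CD8 and NK cell markers Klrd1 and Cd8a were called lower and Eomes higher. Klrd1 averaged 36.5 ± 9.13 CPM with CKBA and 86.3 ± 2.54 CPM with DMSO (SD, n = 3 each). The 5 endothelial markers, of which Emcn had no count, summed to 18.3 to 34.1 CPM with CKBA and 42.1 to 44.3 CPM with DMSO. Nearly all of that sum was Pecam1, at 18.3, 20.6 and 34.1 CPM with CKBA and 42.0, 43.7 and 41.9 CPM with DMSO. Pecam1 was called lower, and Cdh5, Kdr and Tek reached at most 0.54 CPM in any library. The part of these differences in the Wnt genes was not tested. In bulk RNA, fewer cells that express a gene and less of its RNA per cell cannot be told apart.

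Among the ligands, Wnt10b, a Wnt that signals through β-catenin, was present with CKBA and close to absent with DMSO. The Wnt10b gene (ENSMUSG00000022996) lies on the minus strand of GRCm38 chromosome 15 at 98770712 to 98778150. Its level was 8.65, 9.55 and 11.2 CPM in CKBA replicates 1, 2 and 3, against 0.254, 0.147 and 0.377 CPM in DMSO replicates 1, 2 and 3. These values rest on 175, 196 and 286 reads with CKBA and on 5, 3 and 8 reads with DMSO. Every CKBA library lay above every DMSO library, by a wide gap. The log2 fold change, CKBA over DMSO, was 5.20 ± 0.31 (SE), and 3 of the 13928 tested genes had a larger one. The ratio of the summed reads, scaled to library size, was 37.9, with an exact 95% interval of 23.2 to 66.7 that covers counting error only. The fitted difference was between 4.93 and 5.58 when any 1 library was left out. In the authors' deposited table it was 4.34.

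Wnt10a, the closest relative of Wnt10b among the Wnt genes, had no read in any of the 6 libraries. A count of 0 allows up to 0.117 to 0.148 CPM in the CKBA libraries and 0.141 to 0.153 CPM in the DMSO libraries, taking 3 reads as the limit. The other ligands were scarce as well. Of 19 Wnt ligand genes, 7 had no read at all, and 3 were abundant enough to test, Wnt10b, Wnt2b and Wnt5b. Wnt5b, which often signals without β-catenin, had 15, 11 and 7 reads with CKBA and 18, 17 and 20 with DMSO (log2 fold change -0.81 ± 0.42, adjusted p = 0.229 by edgeR's quasi-likelihood test). Here and below a gene passes the test at an adjusted p under 0.05 over all 13928 genes. Wnt2b had 9, 11 and 24 reads with CKBA and 28, 9 and 16 with DMSO, and the groups overlapped. Wnt3, too low to test, had 9, 4 and 19 reads with CKBA and 0, 2 and 0 with DMSO. On the FPKM scale, which corrects for gene length, Wnt10b made up 78.6% to 83.3% of the summed ligand RNA with CKBA and 8.82% to 21.5% with DMSO. The summed ligand level was 4.62, 4.96 and 5.81 FPKM in CKBA replicates 1, 2 and 3, against 0.94, 0.68 and 0.79 FPKM in DMSO replicates 1, 2 and 3. Most of that gap was Wnt10b itself.

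**Figure D1:**
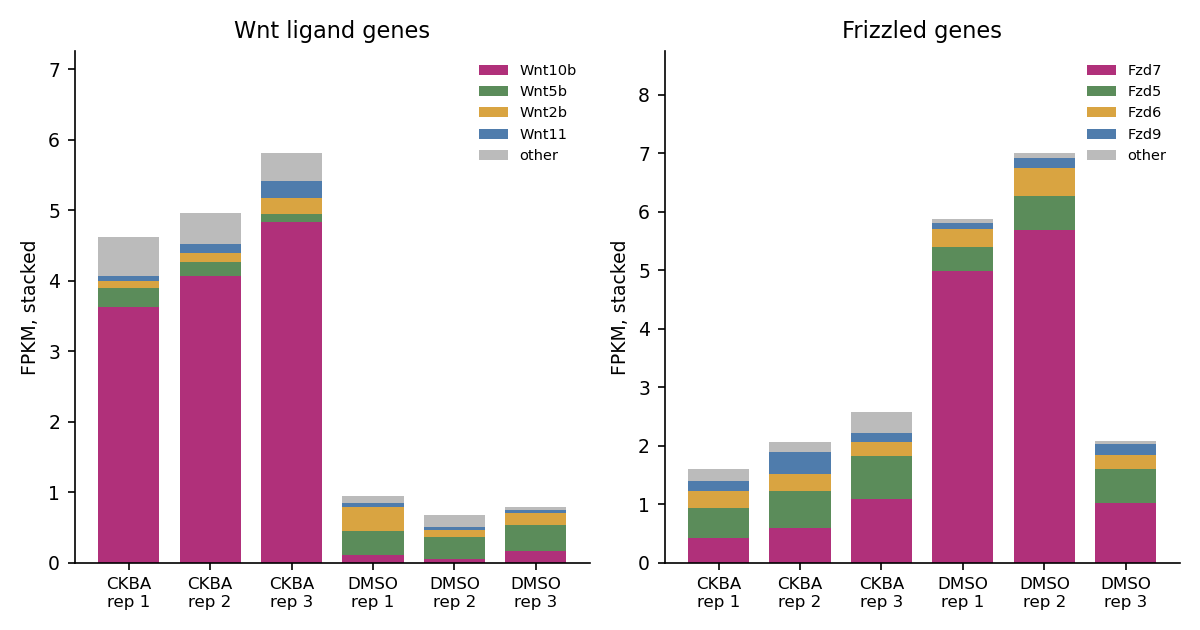
Summed FPKM of the Wnt ligand genes (left) and the Frizzled genes (right) in each of the 6 libraries, CKBA then DMSO, with the 4 most abundant genes of each family in colour. Wnt10b fills most of each CKBA ligand bar, and Fzd7 fills most of the Frizzled bars of DMSO replicates 1 and 2 (85.0% and 81.1%) but 49.0% of that of DMSO replicate 3.

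The gene for the carrier that takes Wnt proteins to the cell surface, Wls, was higher with CKBA too. Wls stood at 9.04, 9.02 and 10.3 CPM with CKBA, against 4.02, 4.46 and 4.33 CPM with DMSO, and rose by 1.14 ± 0.16 on the log2 scale (edgeR's quasi-likelihood test, Benjamini-Hochberg adjusted p = 0.00354 over all genes). The groups did not overlap, and the call held in each of the 6 fits that left out 1 library but not with replicates 1 and 2 summed (adjusted p = 0.108). Porcn, whose enzyme attaches the lipid to Wnt proteins, was too low to test, with 2, 1 and 2 reads with CKBA and 14, 19 and 2 with DMSO.

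Lgr4, the R-spondin receptor gene (ENSMUSG00000050199; plus strand of chromosome 2, 109917647 to 110014257), showed the opposite picture. Its level was 0.889, 1.85 and 1.29 CPM in CKBA replicates 1, 2 and 3, against 39.3, 42.3 and 19.5 CPM in DMSO replicates 1, 2 and 3. All CKBA libraries were far below all DMSO libraries, although DMSO replicate 3 had less Lgr4 than the other DMSO libraries. The log2 fold change was -4.64 ± 0.37 (SE), and 5 tested genes had a lower one. Summed over the libraries, 89 reads with CKBA stood against 2049 with DMSO, a scaled ratio of DMSO over CKBA of 24.9 with an exact 95% interval of 20.2 to 31.2 for counting error. The fitted difference lay between -4.92 and -4.43 with any 1 library left out, and was -4.15 in the authors' deposited table. Its relatives were too low to test. Lgr5 had 1, 1 and 0 reads with CKBA and 9, 9 and 0 with DMSO, and Lgr6 had 9, 4 and 0 with CKBA and 2, 2 and 0 with DMSO. Of the 7 R-spondin and LGR genes, 4 had no read in any library and Lgr4 was the 1 tested.

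Fzd7, a Frizzled receptor gene (ENSMUSG00000041075; plus strand of chromosome 1, 59482424 to 59486955), was lower with CKBA in replicates 1 and 2 but not in replicate 3. It stood at 1.93, 2.73 and 4.88 CPM in CKBA replicates 1, 2 and 3, against 22.8, 26.0 and 4.52 CPM in DMSO replicates 1, 2 and 3. DMSO replicate 3 lay inside the range of the CKBA libraries, so the groups overlapped. Over all libraries Fzd7 fell by 2.46 ± 0.62 on the log2 scale (adjusted p = 0.032, edgeR's quasi-likelihood test). Under a replicate block, which matches libraries by replicate number alone, the adjusted p was 0.254 in the same test. The call was also lost without CKBA replicate 1, 2 or 3 or DMSO replicate 1 or 2 (adjusted p of 0.101 to 0.158 by that test), and held without DMSO replicate 3, where the change was -2.92 (adjusted p = 0.00124). Without replicate 3 of either group it was -3.39, and with replicates 1 and 2 summed it was -2.03 (adjusted p = 0.339). Within the same-numbered pairs the difference was -3.50, -3.21 and 0.11.

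The remaining Frizzled genes were low. Fzd4 had 17, 12 and 53 reads with CKBA and 1, 8 and 4 with DMSO, 2.45 ± 0.71 on the log2 scale, just short of the threshold (edgeR, adjusted p = 0.0513). Its groups did not overlap. Fzd5 stood at 3.71, 4.29 and 5.08 CPM with CKBA and 2.85, 4.02 and 4.0 CPM with DMSO, and Fzd6 at 1.19, 1.27 and 0.976 CPM with CKBA and 1.27, 2.01 and 0.942 CPM with DMSO. Neither passed the test. All 10 Frizzled genes together summed to 1.60, 2.06 and 2.58 FPKM with CKBA, against 5.87, 7.0 and 2.08 FPKM with DMSO, with DMSO replicate 3 again within the CKBA range.

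The co-receptor genes did not pass the test. Lrp6 stood at 86.5, 87.2 and 116 CPM with CKBA, against 115.6, 118 and 135.7 CPM with DMSO, which is -0.35 ± 0.13 on the log2 scale (edgeR's quasi-likelihood test, adjusted p = 0.102). CKBA replicate 3 just reached the lowest DMSO library. With the replicate block Lrp6 passed the threshold (-0.36, adjusted p = 0.00728 by the same test), and without CKBA replicate 3 it did so as well (-0.50, adjusted p = 0.00551). It did not pass without any other single library (adjusted p of 0.175 to 0.299) or with replicates 1 and 2 summed (adjusted p = 0.464). Lrp5 stood at 27.4, 28.1 and 23.2 CPM with CKBA and 28.1, 34.5 and 27.6 CPM with DMSO. Its groups overlapped, and its log2 fold change of -0.20 ± 0.13 did not pass the test (adjusted p = 0.318). By FPKM, Lrp6 made up 68.9% to 78.1% of the RNA of this pair with CKBA and 70.9% to 77.8% with DMSO.

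Ctnnb1, which encodes β-catenin, was by far the most abundant of the 10 genes. Its level was 379, 364 and 424 CPM with CKBA, against 459, 466 and 439 CPM with DMSO. All 3 CKBA libraries lay below the DMSO libraries, but the log2 fold change was -0.23 ± 0.08 and did not pass the test over all genes (edgeR, adjusted p = 0.0907, or 0.0575 under the replicate block). It did without CKBA replicate 3 (-0.29, adjusted p = 0.0097 by that test), but not with replicates 1 and 2 summed (adjusted p = 0.596). On the opposite strand Ctnnb1 overlaps Ulk4 and a gene with no reads; Ulk4 had at most 41 reads in a library, and whether strand was kept was not given. These overlapping reads are few beside those of Ctnnb1.

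Of the feedback genes, Axin2 was lower with CKBA by an amount near the limit of the test, and the ligase genes were not. Axin2 stood at 4.94, 5.85 and 8.79 CPM in CKBA replicates 1, 2 and 3, against 9.15, 11.6 and 11.7 CPM in DMSO replicates 1, 2 and 3. The groups did not overlap, and CKBA replicate 3 lay close to DMSO replicate 1. The log2 fold change was -0.72 ± 0.23 and did not pass the test (edgeR, adjusted p = 0.0693). Under the replicate block it was -0.75 and passed (adjusted p = 0.0123 by the same test). Axin2 also passed without CKBA replicate 3, at -1.0 (adjusted p = 0.00702), but not without any other single library (0.119 to 0.215) or with replicates 1 and 2 summed (adjusted p = 0.378). Its differences within pairs 1, 2 and 3 were -0.88, -0.97 and -0.41.

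Znrf3 stood at 29.0, 31.4 and 41.6 CPM with CKBA and 28.4, 28.9 and 35.9 CPM with DMSO, and Rnf43 at 2.32, 2.83 and 4.53 CPM with CKBA and 1.88, 2.36 and 3.48 CPM with DMSO. The groups overlapped for both genes, and replicate 3 was the highest library in each group. The log2 fold change was 0.13 ± 0.16 for Znrf3 and 0.33 ± 0.34 for Rnf43 (in edgeR, adjusted p of 0.604 and 0.549). Both were slightly higher with CKBA in each of the 3 same-numbered pairs. Without CKBA replicate 3 the Znrf3 estimate turned to -0.036 and that of Rnf43 to 0.000168, and without DMSO replicate 3 they were 0.25 and 0.62.

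**Figure D2:**
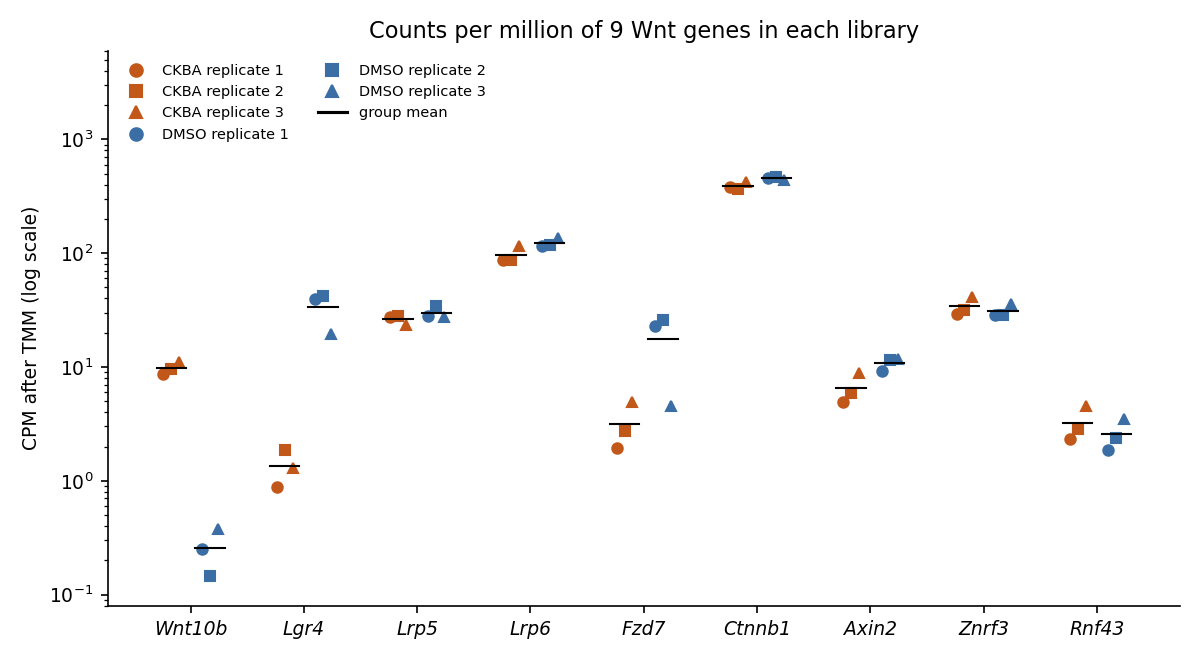
Level of the 9 measured genes in each library, in CPM on a log axis, CKBA left of DMSO, with the group mean as a bar. Wnt10b and Lgr4 separate the groups by a wide gap in opposite directions, while DMSO replicate 3 (blue triangle) sits with the CKBA libraries for Fzd7.

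**Figure D3:**
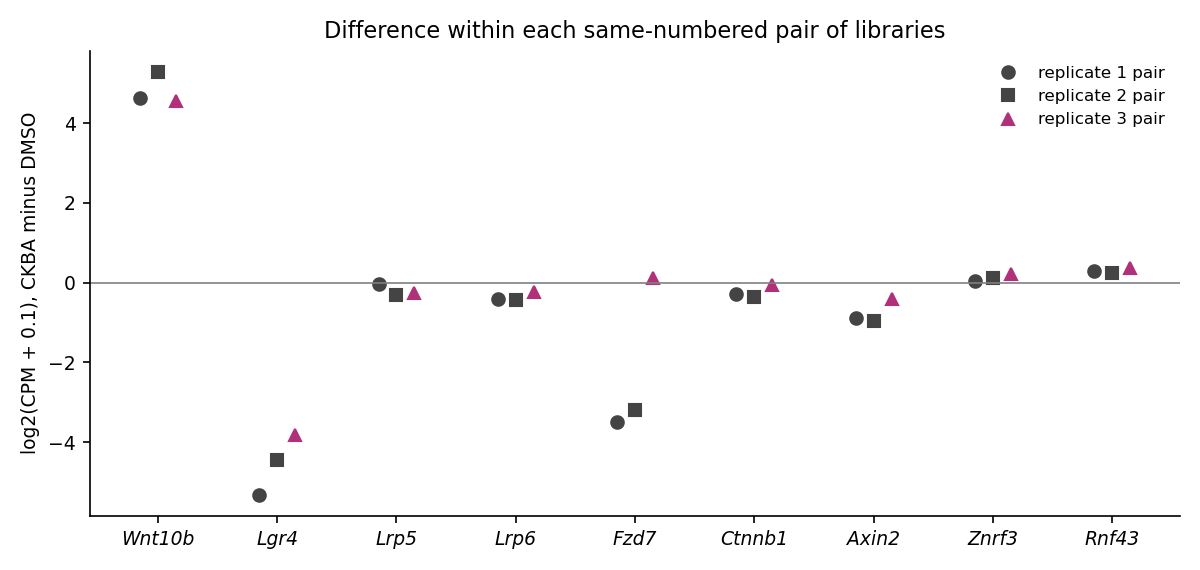
Difference between CKBA and DMSO on the scale of log2(CPM + 0.1) within each pair of libraries with the same replicate number. The differences of Wnt10b (4.56 to 5.29) and Lgr4 (-5.31 to -3.82) are large in every pair, that of Fzd7 is 0.11 in pair 3, and those of Ctnnb1, Axin2 and Lrp6 are smallest in size in pair 3.

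Read as a set, 1 of the 9 tested genes was higher with CKBA and 2 were lower, Wnt10b and then Lgr4 and Fzd7. Over all tested genes, 17.1% were called, 7.86% higher and 9.23% lower, and since Wnt10b and Lgr4 were chosen for this contrast nothing is read from that count. Of the 7 other tested genes, 0 were higher and 1, Fzd7, was lower by edgeR's quasi-likelihood test, or 14.3% called. Their median log2 fold change was -0.23, beside 0.01 over all tested genes. Lrp6, Ctnnb1 and Axin2 were lower with unadjusted p of 0.0271, 0.0224 and 0.0147 in that test. How many of all genes reach such a p was not counted, so nothing is read from these 3. DESeq2 called Fzd7 and Axin2 lower and none of the 7 higher. That fit called 1332 of 24497 genes higher and 1565 lower. With the replicate block 1 of the 9 was higher and 3 were lower, Lgr4, Lrp6 and Axin2, in a fit that called 28.2% of all tested genes, 13.8% higher and 14.4% lower. The groups did not overlap for Wnt10b, Lgr4, Ctnnb1 and Axin2, and so did 36.6% of the 13928 genes.

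In the order of the levels, Wnt10b and Lgr4 changed places most. On the FPKM scale Ctnnb1 led in both groups, at 75.9 ± 7.03 with CKBA and 89.4 ± 1.03 with DMSO (mean ± SD, n = 3 each), followed by Lrp6 at 7.04 ± 1.33 and 9.04 ± 1.0. With CKBA the next were Znrf3 at 4.29 ± 0.91 and Wnt10b at 4.18 ± 0.61, which did not differ beyond their spread, then Lrp5 at 2.68 ± 0.24. Axin2 at 1.18 ± 0.38, Fzd7 at 0.703 ± 0.35 and Rnf43 at 0.493 ± 0.18 overlapped in turn, and Lgr4 was last at 0.227 ± 0.080. With DMSO, Lgr4 at 5.71 ± 2.02 came after Lrp6 and overlapped with Znrf3 at 3.95 ± 0.62, Znrf3 with Fzd7 at 3.90 ± 2.52, and Fzd7 with Lrp5 at 3.09 ± 0.36. Axin2 at 1.97 ± 0.28 and Rnf43 at 0.397 ± 0.14 followed, and Wnt10b was last at 0.113 ± 0.055.

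The wider pathway was read from a textbook list of 138 Wnt genes, of which 25 had no read and 77 were tested. Without the 10 genes above, 4 of 68 tested genes were higher with CKBA and 7 lower, or 16.2% called, close to the 17.1% over all genes. Their median log2 fold change was -0.02, beside 0.01 over all genes. With the replicate block, 8 of these 68 genes were higher and 10 lower, or 26.5%, beside 28.2% of all tested genes in that fit. The 4 that rose were Wls, described above, and 3 known Wnt targets in other tissues, Bambi, Myc and Cd44. The 7 that fell were Tcf7, the transducer and repressor genes Ep300 and Tle1, the DKK receptor genes Kremen1 and Kremen2, and the kinase-related genes Csnk1e and Frat1.

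Tcf7 had the largest fall among the nuclear genes. It stood at 489, 482 and 414 CPM with CKBA, against 966, 976 and 900.1 CPM with DMSO, and fell by 1.04 ± 0.09 on the log2 scale (adjusted p = 5.63e-04, edgeR's quasi-likelihood test). The groups were far apart, and the call held whichever library was left out. Its partner Lef1 did not pass the test, at 132, 129 and 156 CPM with CKBA and 129, 129.6 and 143 CPM with DMSO. Ep300, an acetyltransferase that binds β-catenin, and Tle1, a Groucho-type corepressor of TCF and LEF, fell by 0.34 ± 0.07 and 0.42 ± 0.09 (adjusted p of 0.0194 and 0.0199 by that test). Both calls were lost in 4 of the 6 fits without 1 library, with adjusted p of up to 0.103 and 0.108.

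Bambi, whose product is a TGF-β pseudoreceptor and which β-catenin can induce in human cells, stood at 6.37, 6.53 and 7.42 CPM with CKBA, against 2.64, 2.16 and 2.78 CPM with DMSO. It rose by 1.42 ± 0.19 on the log2 scale (adjusted p = 0.00358, edgeR's quasi-likelihood test), and its call held in all 6 fits that left out 1 library but not with replicates 1 and 2 summed (adjusted p = 0.103). Myc, the growth regulator, rose by 0.31 ± 0.07 and Cd44, an adhesion receptor raised on activated T cells, by 0.87 ± 0.22 (adjusted p of 0.0258 and 0.031 by that test). Both were called in 2 of those 6 fits. The cell cycle gene Ccnd1, another known target, had 23, 23 and 36 reads with CKBA and 10, 17 and 8 with DMSO and did not pass (adjusted p = 0.0879 by that test). Targets used in epithelia were near 0: Nkd1 had at most 6 reads, Sp5 at most 3 and Lgr5 at most 9 in a library. Of the 13 tested feedback and target genes, 3 were higher and 1, Tcf7, was lower, or 30.8% beside the 17.1% over all genes. Roles of the list overlap, and Tcf7 also counts among its nuclear genes. With replicates 1 and 2 summed Bambi, Myc and Cd44 did not pass and Tcf7 did.

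Kremen1 and Kremen2, surface receptors for the inhibitors of the DKK family, were both lower. Kremen1, which lies next to Znrf3 on chromosome 11, stood at 66.1, 65.8 and 72.8 CPM with CKBA, against 91.1, 96.9 and 94.9 CPM with DMSO, and fell by 0.47 ± 0.08 (adjusted p = 0.0074, edgeR's quasi-likelihood test), a call lost with replicates 1 and 2 summed (adjusted p = 0.185). Kremen2 had 8, 6 and 13 reads with CKBA and 45, 43 and 13 with DMSO, so that replicate 3 had the same number in both groups, and its call (adjusted p = 0.0398) was lost in 4 of the 6 fits without 1 library. The Kremen2 difference was -2.03 over all libraries and -2.65 without replicate 3 of either group. The list groups 18 tested genes with the destruction complex, whichever way they act on it. Of these, 2 fell, or 11.1% beside the 17.1% over all genes. They were Frat1, a GSK3-binding protein gene that fell by 0.78 ± 0.21, and the casein kinase gene Csnk1e, which fell by 0.33 ± 0.08 (adjusted p of 0.0399 and 0.033 by that test), each called in 2 of the 6 fits without 1 library. The core members of the complex, Apc, Axin1 and Gsk3b, had log2 fold changes of 0.04, -0.02 and -0.08 and did not pass. The most abundant genes of Dishevelled and its partners, Dvl1 at 0.08 ± 0.09 and Dvl3 at -0.26 ± 0.13, did not pass either (in edgeR, adjusted p of 0.598 and 0.214).

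**Figure D4:**
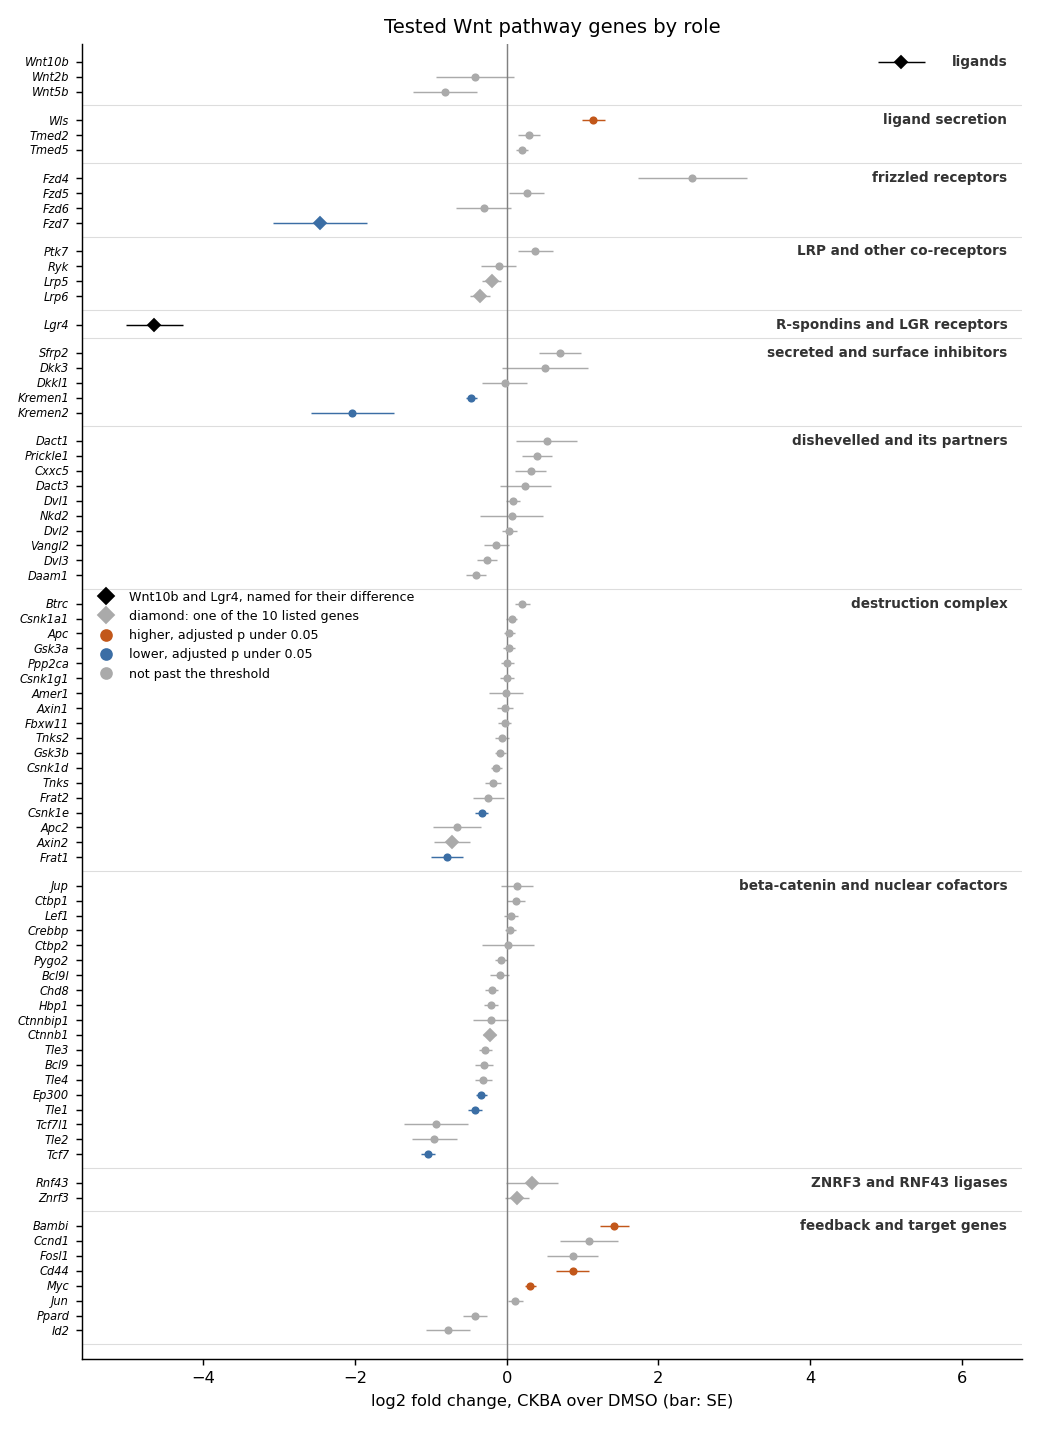
Log2 fold change, CKBA over DMSO, with its SE for each of the 77 tested Wnt pathway genes, grouped by role and sorted within it. Diamonds are the listed genes, and a gene listed under several roles is shown under the earliest only. Wnt10b (5.20) and Lgr4 (-4.64) lie far outside the range of the other genes, which runs from -2.46 to 2.45, and most core signalling genes lie close to 0.

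The neighbours of Wnt10b and Lgr4 on the chromosome that were abundant enough to test did not pass. Wnt1 and Ddn near Wnt10b, and Bdnf and Bbox1 near Lgr4, were too low to test. Arf3, 7497 bases from Wnt10b, had a log2 fold change of 0.13 ± 0.07, Fkbp11 had 0.05 ± 0.32, and Wnt1, on the other side, had no read in any library. Lin7c and Ccdc34, on either side of Lgr4, had 0.03 ± 0.08 and -0.10 ± 0.12. Their adjusted p in edgeR was 0.232 for Arf3, 0.931 for Fkbp11, 0.831 for Lin7c and 0.636 for Ccdc34.

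The 5 genes whose profile over the 6 libraries was nearest to Wnt10b, among 11214 compared, were Il1a, Hrh3, Trib3, Slc7a3 and Ccl1. Their root mean square distance from it was 0.30 to 0.43 on the log2 scale, after each gene was centred on its own mean. For Lgr4 they were Atp6v0d2, Tgm2, Daw1, Il17a and Rbpms2, at 0.32 to 0.44. Il17a, the 4th nearest at 0.44, encodes the cytokine IL-17A that defines TH17 cells. Wnt10b and Lgr4 were chosen for their difference, so their nearest profiles are genes with a like difference. Nothing is read from these names. For Fzd7, looked up after its values were seen, the nearest were Plcxd1 at 0.13, the glucose transporter gene Slc2a3 at 0.23, Sdc4, Mboat2, and the hypoxia-induced gene Ndrg1 at 0.29. All 5 shared the low value in DMSO replicate 3, which a search for the nearest profile over these libraries selects for.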

How the data were processed

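Expression was measured by RNA-seq in 6 libraries, 3 with CKBA and 3 with DMSO by their titles. The authors deposited estimated counts for every gene in every library; the submitters' processing notes name CASAVA 1.8, RSEM, edgeR and build GRCm38, and aligner, annotation and strand setting were not given in the sources used here. RSEM divides reads between similar genes. All deposited expected counts were whole, so rounding changed none. The deposited FPKM values per library served for levels between genes and an alternative test. The deposited log2 ratios of the authors' own test were quoted, its deposited p-values were not used, and a deposited pathway annotation table was not used.

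The 13928 genes passing filterByExpr went into edgeR 4.0.16, run in R 4.3.3 (quasi-likelihood F test, robust, TMM, Benjamini-Hochberg over all genes, threshold 0.05). CPM are after TMM; the SE of a fold change is its size over the root of F. The fit was tested on simulated data. Alternatives used RLE factors, library totals, other filters, DESeq2 1.42.0, limma 3.58.1 on log2(FPKM + 0.1) and log2(FPKM + 1), a replicate block, and other sets of libraries. Deviations of same-numbered libraries from their group means correlated across genes at 0.244, 0.235 and 0.436. Numbers 1 and 2 correlated across groups as well (0.232 and 0.244). The data thus set replicate 3 apart but do not match replicate 1 to 1 or 2 to 2. The labels state no pairing, so the replicate block and the differences within pairs rest on the replicate numbers alone. Gene positions came from GENCODE M21 (GRCm38).

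The members and lists were chosen with earlier results of these data known. Named genes were the 10 members, up to 4 called genes with the smallest adjusted p per pathway role, or the 2 most abundant tested genes of a role with none, and the 5 nearest profiles to Wnt10b and to Lgr4, among genes of at least 1 CPM with 0.5 CPM added; genes outside the rule, such as Wnt2b, Wnt3, Wnt5b, Fzd4 to Fzd6, Lef1 and Ccnd1, were chosen after their values were seen.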

Additional observations from a re-analysis of the deposited data

How the results depend on the processing

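The differences of Wnt10b and Lgr4 kept their direction in all 16 alternatives, at 2.21 to 5.58 and -4.92 to -2.40 on the log2 scale, the smallest from FPKM with 1 added. Both genes were chosen for that difference in these same libraries, so these ranges are a description with no test. The counts of listed and pathway genes below include both. Lrp5, Znrf3 and Rnf43 passed in none of them, and Znrf3 ranged from -0.036, without CKBA replicate 3, to 0.25, without DMSO replicate 3. Fzd7 passed in 6 of 16 alternatives, Axin2 in 5, Lrp6 in 3 and Ctnnb1 in 2, all lower in each. With the replicate block 1922 of 13928 genes were higher and 2009 lower, against 1095 and 1286. Of 77 pathway genes, 9 were then higher, against 5, and 13 lower, against 9. DESeq2 called 9 of 113 pathway genes higher and 11 lower, beside 1332 and 1565 of all 24497 genes. By limma on FPKM 1 of 9 listed genes was lower with either pseudocount. Of all 13928 genes, 1184 were lower with 0.1 added and 1135 with 1 added. With replicates 1 and 2 summed, 56 of 15037 genes were higher and 54 lower. Then 1 of 9 listed genes was lower, Lgr4, and of 83 pathway genes 1 was higher, Wnt10b, and 2 lower, Lgr4 and Tcf7. Without replicate 3 of either group, 3660 of 14001 genes were higher and 3728 lower. Then 5 of 9 listed genes were lower, and of 80 pathway genes 13 were higher and 27 lower. Leaving out 1 library gave 251 to 1961 higher and 390 to 2014 lower genes of 14261 to 14370 tested. Of the 9 listed genes 1 to 4 were lower. Of 78 to 82 pathway genes, 3 to 8 were higher and 3 to 19 lower. The fewest came without a replicate 1 or 2 and the most without CKBA replicate 3. The cause was not tested. Depth limits Wnt10b with DMSO, Wnt10a and most other ligands.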
